A study of Homo sapiens with 8 samples.

Results

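Histone acetylation is set by acetyltransferases that write the mark, by deacetylases that erase it and by bromodomain proteins that read it, and 30 genes of this machinery were followed in A673 cells treated with JIB-04. The genes were taken by symbol from the deposited table of 65962 usable genes: 10 acetyltransferases, 2 bromodomain readers of the BET family, 11 zinc-dependent histone deacetylases (HDACs) and 7 NAD-dependent sirtuins. BRD2 had 7 identifiers in the table and KAT6B 2, of which the one with the highest mean was kept. A673 is an established Ewing Sarcoma cell line, a tumor driven by the EWS/Fli1 fusion, and JIB-04 is an inhibitor of Jumonji-domain histone demethylases, which remove methyl groups from histones rather than acetyl groups. The design held 4 samples treated with vehicle (DMSO) and 4 with 2 μM JIB-04, all for 36 hours. The study's methods describe treatment in quadruplicate and say no more of how independent the 4 samples of a group were, so the p-values measure the spread between them, which may in part be technical.

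Acetylation of lysines in histone tails loosens chromatin and gives a docking site to bromodomains, and it is generally found at active promoters and enhancers. The acetyltransferases fall into the GNAT family, the MYST family and the pair p300 and CBP, and they work in large complexes. Class I HDACs are nuclear enzymes of corepressor complexes, class IIa HDACs shuttle between nucleus and cytoplasm, HDAC6 of class IIb is a cytoplasmic deacetylase of tubulin, and sirtuins consume NAD and are split between nucleus, cytoplasm and mitochondria.

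Expression was measured as FPKM, a read count scaled to transcript length and library size, so levels of different genes can be compared. The FPKM summed to 1346290 to 1370440 per vehicle sample and 1175410 to 1237190 per JIB-04 sample, and messages of the 13 mitochondrially encoded genes made up 9.60% to 10.2% of it with vehicle and 3.60% to 4.33% with JIB-04. The part of that shift in the results below was not tested beyond rescaling each library to the same sum (TPM), which shifted the median change over all genes by 0.15 on the log2 scale. Of 8 Ewing Sarcoma markers all were expressed, from 20.5 FPKM for BCL11B to 1352 FPKM for CCND1 on average in vehicle. CD99, NKX2-2, PRKCB and CCND1 were lower with JIB-04 and BCL11B was higher. STEAP1 was lower and FLI1 higher as deposited, but STEAP1 did not pass in TPM (limma adjusted p = 0.431), nor FLI1 with the trend of the values on transcript GC content removed (limma adjusted p = 0.229), a step chosen after the data were seen. NR0B1 averaged 111 FPKM in the vehicle samples and 124 FPKM with JIB-04 and did not pass as deposited, but was called higher in TPM, with median-ratio scaling, with the GC trend removed and without JIB-04 replicate 3. Of 10 markers of other cell types, CD3E and MYOD1 were listed at 0 in every vehicle sample, and PTPRC, EPCAM, DES, PECAM1 and ITGAM averaged under 1 FPKM in vehicle. KRT8, SNAP25 and ITGAM were higher with JIB-04, each by at least 2-fold. KRT18 was lower, at 302 FPKM in the vehicle samples and 243 FPKM with JIB-04, but did not pass with the GC trend removed (limma adjusted p = 0.0605). The part of these markers in the results was not tested. In bulk RNA, fewer cells with a message cannot be told apart from less of the message per cell.

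JIB-04 changed the level of nearly every gene of this machinery, but in both directions and mostly by less than 2-fold. HDAC11, the lone class IV enzyme, averaged under 1 FPKM over the 8 samples and was not tested. Of the 29 genes tested by limma on log2(FPKM + 0.5), 14 were higher and 13 were lower at a Benjamini-Hochberg adjusted p under 0.05, and KAT5 and HDAC4 did not pass. The same test called 72.2% of all 17460 genes, 34.2% higher and 38.0% lower, against 93.1%, 48.3% and 44.8% of these 29. Where the mean reached 5 FPKM the share called was 78.8%, against 25 of the 27 members at that level. Only 6 members passed 2-fold on this scale, EP300, BRD2 and SIRT1 upward and BRD3, HDAC6 and HDAC10 downward. These are 3 of 29 in each direction, or 10.3%, near the 13.1% and 11.8% of all genes called at least 2-fold higher and lower. The groups of samples did not overlap for 22 of the 29 members, or 75.9%, against 67.3% of all genes. These were 11 in each direction, against 31.9% of all genes upward and 35.4% downward.

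**Figure D1:**
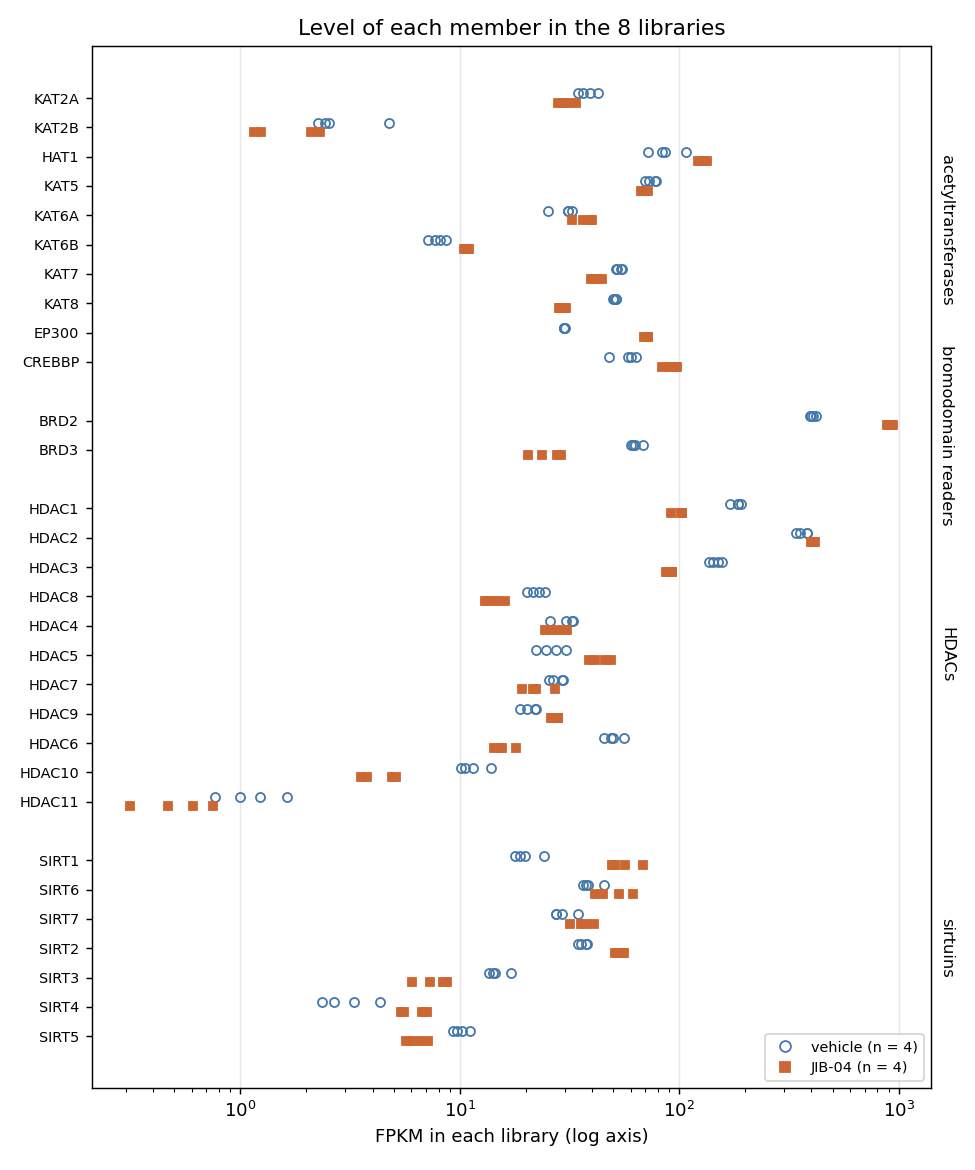
Level of each of the 30 genes in FPKM on a log axis, with 1 point per sample, circles for the 4 vehicle samples and squares for the 4 JIB-04 samples, grouped by family. BRD2 and HDAC2 have the highest levels, and KAT2B, HDAC11 and SIRT4 the lowest.

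**Figure D2:**
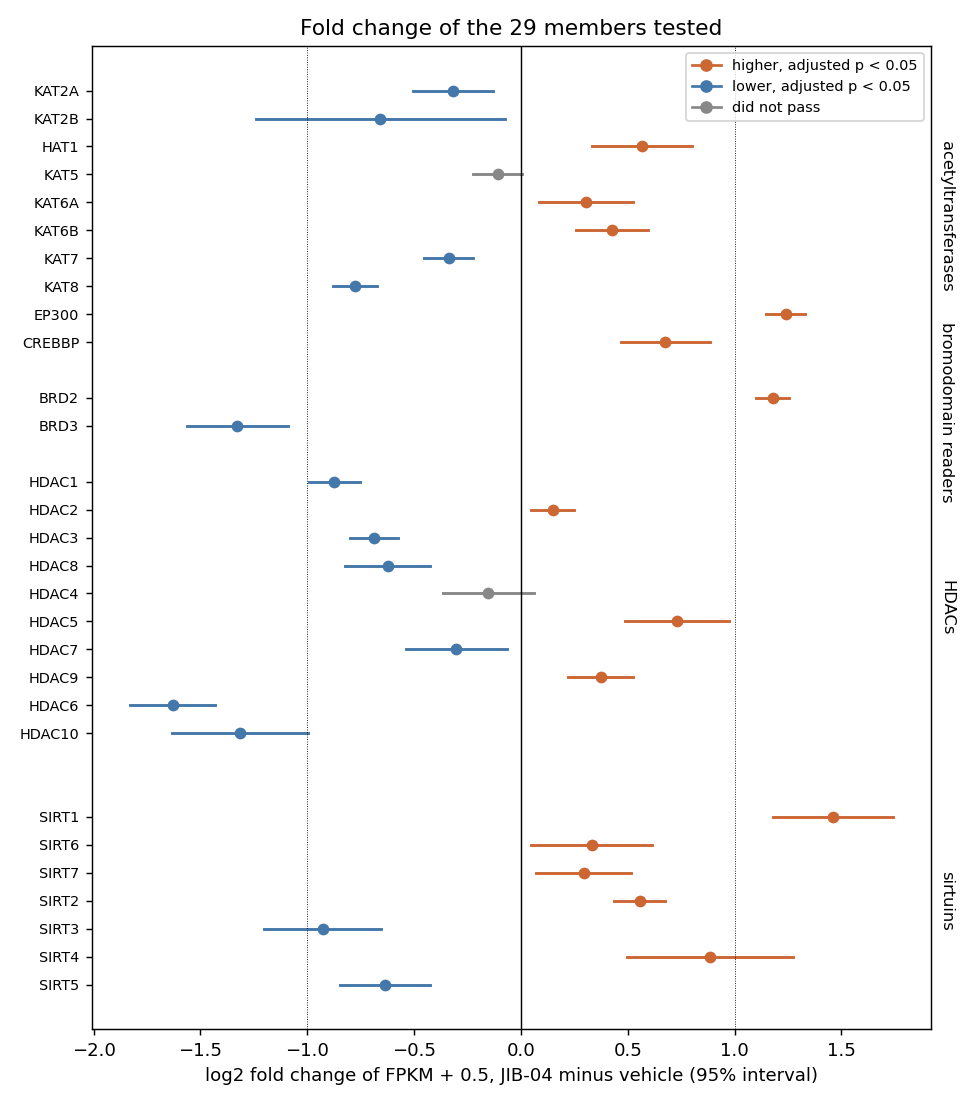
Log2 fold change of FPKM + 0.5 (JIB-04 minus vehicle) with its 95% interval for the 29 genes tested, grouped by family. Orange genes were higher, blue genes lower and gray genes did not pass, and dotted lines mark 2-fold, which SIRT1, EP300 and BRD2 passed upward and HDAC6, BRD3 and HDAC10 downward.

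The promoters of the 6 genes that passed 2-fold are given here, since they are the ends of the range. Each window lies mostly before the start that RefSeq gives on GRCh38.p14 and is written 5′ to 3′ on the strand of the gene, and the RNA data do not show which start the cells used. Capitals mark matches, on either strand, to 7 motifs named for the factors known to bind them or for the element: the GC box of Sp1 (GGGCGG), the CCAAT box of NF-Y (CCAAT), an ETS site (CCGGAAG), a cyclic AMP response element (TGACGTCA), the E-box (CACGTG), the NRF1 site and the TATA box (TATAAA). Matches can overlap, so a run of capitals may hold more than 1.
EP300 promoter, chr22:41092342-41092641, plus strand: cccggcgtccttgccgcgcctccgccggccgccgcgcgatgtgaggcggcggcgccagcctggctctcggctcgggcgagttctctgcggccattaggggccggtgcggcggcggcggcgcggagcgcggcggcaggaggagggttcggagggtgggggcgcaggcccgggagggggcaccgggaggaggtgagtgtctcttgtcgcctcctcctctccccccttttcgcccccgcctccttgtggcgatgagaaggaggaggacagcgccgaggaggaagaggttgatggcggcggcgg
BRD2 promoter, chr6:32968344-32968643, plus strand: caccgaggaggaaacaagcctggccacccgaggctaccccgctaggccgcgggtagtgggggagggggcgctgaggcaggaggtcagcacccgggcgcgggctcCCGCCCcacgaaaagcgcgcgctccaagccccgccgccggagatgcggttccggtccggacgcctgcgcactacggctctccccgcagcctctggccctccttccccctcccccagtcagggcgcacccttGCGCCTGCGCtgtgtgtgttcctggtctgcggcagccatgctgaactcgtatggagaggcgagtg
SIRT1 promoter, chr10:67884406-67884705, plus strand: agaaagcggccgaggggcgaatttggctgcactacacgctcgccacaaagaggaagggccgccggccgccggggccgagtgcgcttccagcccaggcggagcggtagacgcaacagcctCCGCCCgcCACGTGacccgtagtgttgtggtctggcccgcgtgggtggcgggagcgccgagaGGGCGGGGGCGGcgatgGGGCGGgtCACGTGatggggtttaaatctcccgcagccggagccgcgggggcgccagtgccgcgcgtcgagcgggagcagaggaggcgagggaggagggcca
BRD3 promoter, chr9:134067977-134068276, minus strand: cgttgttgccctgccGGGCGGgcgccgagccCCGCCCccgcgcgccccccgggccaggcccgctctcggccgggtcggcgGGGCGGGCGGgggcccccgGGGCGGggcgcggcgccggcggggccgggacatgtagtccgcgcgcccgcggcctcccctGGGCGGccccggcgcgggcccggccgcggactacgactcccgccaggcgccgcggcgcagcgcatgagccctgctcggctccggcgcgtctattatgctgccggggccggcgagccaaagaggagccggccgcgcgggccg
HDAC6 promoter, chrX:48801817-48802116, plus strand: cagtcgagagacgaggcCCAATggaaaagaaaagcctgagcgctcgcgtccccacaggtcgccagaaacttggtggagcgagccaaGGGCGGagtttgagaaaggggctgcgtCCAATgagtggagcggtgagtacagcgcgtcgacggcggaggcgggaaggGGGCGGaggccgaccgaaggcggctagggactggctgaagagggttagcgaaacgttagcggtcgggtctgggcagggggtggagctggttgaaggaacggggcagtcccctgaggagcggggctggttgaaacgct
HDAC10 promoter, chr22:50251216-50251515, minus strand: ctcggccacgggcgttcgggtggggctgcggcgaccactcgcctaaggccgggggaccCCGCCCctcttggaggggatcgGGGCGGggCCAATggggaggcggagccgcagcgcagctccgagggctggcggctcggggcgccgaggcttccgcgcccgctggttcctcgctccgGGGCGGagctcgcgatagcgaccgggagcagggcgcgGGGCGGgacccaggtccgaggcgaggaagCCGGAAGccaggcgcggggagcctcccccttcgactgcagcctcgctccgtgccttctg

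Of the 7 motifs, only the GC box was found in more than 2 of these 6 promoters. The GC box was found in 5 of them, with 1 match in BRD2, 6 in BRD3, 4 in SIRT1, 2 in HDAC6 and 4 in HDAC10, and none of the 7 motifs was in the EP300 window. SIRT1 held 2 matches to the palindromic E-box, HDAC6 held 2 CCAAT boxes, HDAC10 held 1 CCAAT box and 1 ETS site, and BRD2 held 1 NRF1 site. RefSeq promoters were matched for 26 of the 30 members, all but KAT6A, KAT8, HDAC5 and SIRT7. The GC box was present in 16 of the 26, against 45.0% of all 35116 promoters of this length, the CCAAT box in 7 against 34.6%, the ETS site in 6 against 10.3%, the NRF1 site in 4 against 5.78%, the E-box in 2 against 7.26%, the cyclic AMP response element in 1, SIRT4, against 1.85%, and the TATA box in 0 against 11.5%. The median GC content was 69.2% in the member promoters and 58.7% in all. It was 65.0% in 11 promoters of members that were higher and 73.8% in 12 of members that were lower. Promoter GC content was not split by direction over all genes. The median transcript GC content was 44.6% in all genes that were higher and 51.7% in all that were lower. In members it was 51.7% and 52.7%. The BRD2 window ended just before the start of the gene in GENCODE 29. The windows of EP300, BRD3 and HDAC6 lay wholly inside the gene as GENCODE 29 places it, so they do not show the sequence before that start. The same was true of some other members, such as HDAC4 and HDAC9. The 35116 promoters were not limited to genes expressed in these cells, so the shares do not compare the members with expressed genes alone. A match or its absence says nothing of binding.

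Among the acetyltransferases, p300 and CBP rose together. EP300, at 41091786 to 41180079 on chromosome 22 of GRCh38, encodes p300, a coactivator that acetylates histone H3 at enhancers. The vehicle samples had 29.8, 29.8, 29.8 and 30.2 FPKM of EP300, and the JIB-04 samples had 68.9, 72.1, 72.2 and 71.8 FPKM. The groups were far apart, with a 2.38-fold higher mean (log2 change 1.24 with SE 0.04, limma adjusted p = 1.37e-08). CREBBP, on chromosome 16, encodes CBP, the close relative of p300. CREBBP had 60.4, 58.3, 63.5 and 47.6 FPKM with vehicle and 90.6, 83.0, 97.7 and 95.8 FPKM with JIB-04, again without overlap (log2 change 0.68 with SE 0.09, limma adjusted p = 0.000122). The rise was steeper for EP300: the log2 ratio of EP300 to CREBBP within a sample was -0.92 ± 0.19 (SD, n = 4) with vehicle and -0.36 ± 0.11 with JIB-04. That difference of 0.56 (standard error 0.11) had an exact two-sided permutation p of 0.0286, the smallest that 4 samples against 4 allow, and 0.0571 adjusted over the 8 pairs of related genes compared in this way. None of the 8 pairs passed as deposited once adjusted. With 4 samples against 4, passing depends on how many of the 8 pairs reach the smallest p. A failure therefore says nothing of the size of a single shift. CREBBP remained the more abundant message in each of the 8 samples.

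The GNAT and MYST acetyltransferases moved in both directions and by less. HAT1, which acetylates newly made histone H4 before its assembly into chromatin, had 71.8, 83.8, 86.3 and 107 FPKM with vehicle and 128, 122, 134 and 128 FPKM with JIB-04 (log2 change 0.57 with SE 0.10, limma adjusted p = 0.000846). All JIB-04 values lay above all vehicle values, although the vehicle samples were spread over a wide range, and with the GC trend removed the log2 fold change of HAT1 was 0.28. KAT8, also called MOF, which acetylates histone H4 at lysine 16, fell without overlap of the groups. Its vehicle values were 51.2, 50.2, 51.5 and 49.8 FPKM and its JIB-04 values 30.4, 30.01, 28.3 and 28.8 FPKM (log2 change -0.78 with SE 0.05, limma adjusted p = 3.87e-07). KAT7, also called HBO1, which acts at replication origins, averaged 53.0 ± 1.63 FPKM (SD, n = 4) with vehicle and 41.9 ± 2.03 FPKM with JIB-04, a log2 fold change of -0.34 that was -0.17 in TPM. FAM117A, whose exons overlap those of KAT7 on the opposite strand, went the other way, with a log2 fold change of 1.58. KAT6B, one of a pair of MYST enzymes that acetylate histone H3 at lysine 23, rose from 7.91 ± 0.634 to 10.8 ± 0.213 FPKM, without overlap of the groups.

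The remaining acetyltransferases gave calls that rested on single libraries or on the scaling. KAT6A, the partner of KAT6B, had 25.1 to 32.5 FPKM with vehicle and 32.4 to 40.2 FPKM with JIB-04, with overlapping groups (limma adjusted p = 0.0190), and without JIB-04 replicate 3 or 4 the adjusted p was 0.0514 or 0.0557. KAT2A, also called GCN5, the catalytic subunit of SAGA and ATAC, fell from 38.3 ± 3.56 to 30.6 ± 2.52 FPKM (log2 fold change -0.32), but had a log2 fold change of -0.15 and an adjusted p of 0.107 in TPM. KAT2B, also called PCAF, its alternative in these complexes, was low in these cells, at 2.52, 2.44, 2.26 and 4.75 FPKM with vehicle and 1.24, 1.15, 2.09 and 2.29 FPKM with JIB-04. The call for KAT2B (limma adjusted p = 0.0436) was lost without vehicle replicate 1, 2 or 4 or JIB-04 replicate 1 or 2, where the adjusted p ran from 0.0553 to 0.112. KAT5, also called TIP60, had 74.4 ± 3.90 FPKM with vehicle and 68.9 ± 2.38 FPKM with JIB-04 and did not pass (limma adjusted p = 0.0838), although it was called lower without vehicle replicate 4, at 0.0338, and higher with the GC trend removed, at a log2 fold change of 0.19 and an adjusted p of 0.00702. RNASEH2C, which overlaps exons of KAT5 on the opposite strand, fell from 125 to 63.2 FPKM (log2 fold change -0.99). Of the 10 acetyltransferases, 5 were therefore higher and 4 lower as deposited, and 5 higher and 2 lower in TPM, where 40.4% of all genes were called higher and 31.1% lower. Neither the ratio of KAT2A to KAT2B nor that of KAT6A to KAT6B separated the groups as deposited, with exact permutation p of 0.400 and 0.257 and differences of 0.34 (standard error 0.36) and -0.12 (standard error 0.09) on the log2 scale. With the GC trend removed the ratio of KAT2A to KAT2B did separate them, with a difference of 0.78.

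The BET readers BRD2 and BRD3 moved in opposite directions, each by more than 2-fold. BET proteins bind acetylated histones through paired bromodomains and recruit the transcription machinery. BRD2, at 32968660 to 32981505 on chromosome 6, was on average the most abundant of all 30 genes with vehicle and with JIB-04. It had 417, 405, 397 and 393 FPKM with vehicle and 902, 940.4, 887 and 922 FPKM with JIB-04 (log2 change 1.18 with SE 0.03, limma adjusted p = 7.06e-09). The other 6 identifiers of BRD2 were listed at 0. BRD3, at 134030305 to 134068535 on chromosome 9, had 68.6, 60.6, 61.5 and 63.1 FPKM with vehicle and 27.7, 28.8, 20.5 and 23.7 FPKM with JIB-04 (log2 change -1.33 with SE 0.10, limma adjusted p = 2.67e-06). In the vehicle samples there was 6.32 times as much BRD2 as BRD3, and in the JIB-04 samples 35.9 times. The within-sample log2 ratio went from 2.66 ± 0.059 to 5.16 ± 0.198 (SD, n = 4), the largest of the 8 pair differences, at 2.51 (standard error 0.10, exact permutation p = 0.0286, adjusted 0.0571). BRDT, the BET protein of the testis, was listed at 0 in every vehicle sample and averaged 0.0374 FPKM with JIB-04.

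Class I HDACs fell except HDAC2. HDAC1 and HDAC2 are the near-identical catalytic subunits of the SIN3, NuRD and CoREST complexes. HDAC1, on chromosome 1, had 185, 184, 192 and 170.4 FPKM with vehicle and 102, 91.8, 103 and 101 FPKM with JIB-04 (log2 change -0.87 with SE 0.05, limma adjusted p = 5.14e-07). HDAC2, on chromosome 6, had 341, 356, 381 and 382 FPKM with vehicle and 417, 397, 403 and 401 FPKM with JIB-04 (log2 change 0.15 with SE 0.04, limma adjusted p = 0.0127). The small rise of HDAC2 kept its call without any 1 sample and in TPM (log2 fold change 0.31). It was not stable to removal of the GC trend, with which its log2 fold change was -0.27 (limma adjusted p = 0.000566). The transcript of HDAC2 had the lowest GC content of the 30 genes, 38.2%. The log2 ratio of HDAC1 to HDAC2 within a sample was -0.995 ± 0.119 with vehicle and -2.02 ± 0.064 with JIB-04 (difference -1.02, standard error 0.07, exact permutation p = 0.0286, adjusted 0.0571). With the GC trend removed that difference was -0.61. HDAC2 made up 50.9% ± 1.92 (SD, n = 4) of the summed class I FPKM with vehicle and 66.4% ± 0.713 with JIB-04, and HDAC1 25.5% ± 1.19 and 16.3% ± 0.618. HDAC3, the deacetylase of the NCoR and SMRT corepressors, had 142, 156, 149.7 and 137 FPKM with vehicle and 87.3, 92.6, 89.6 and 92.6 FPKM with JIB-04 (log2 change -0.69 with SE 0.05, limma adjusted p = 1.53e-06). HDAC8, which deacetylates the cohesin subunit SMC3 and works outside these complexes, fell from 22.3 ± 1.82 to 14.3 ± 1.41 FPKM (log2 fold change -0.62). In HDAC1, HDAC3 and HDAC8 every JIB-04 sample was below every vehicle sample.

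Both class IIb enzymes fell by more than 2-fold. HDAC6, at 48801377 to 48824982 on chromosome X, is the tubulin deacetylase and also binds ubiquitin in the disposal of misfolded protein. It had 45.3, 49.9, 55.9 and 48.8 FPKM with vehicle and 15.2, 18.1, 15.6 and 14.3 FPKM with JIB-04, the largest change of the 29 genes tested as deposited, though not in TPM or with the GC trend removed (log2 change -1.63 with SE 0.09, limma adjusted p = 2.35e-07). HDAC10, at 50245183 to 50251405 on chromosome 22, a deacetylase of polyamines, had 13.9, 11.5, 10.6 and 10.1 FPKM with vehicle and 5.12, 4.92, 3.79 and 3.55 FPKM with JIB-04 (log2 change -1.32 with SE 0.14, limma adjusted p = 2.3e-05). For HDAC10 it is uncertain how reads were assigned, because its exons overlap on the same strand with those of MAPK12, which fell too, from 20.9 to 5.22 FPKM (log2 fold change -1.91). Without the trend on GC content HDAC10 had a log2 fold change of -0.75, so that the size of its fall, not its direction, depended on that step. The ratio of HDAC6 to HDAC10 overlapped between the groups as deposited (difference -0.32, standard error 0.18, exact permutation p = 0.143), and did not with the GC trend removed (difference -0.64).

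Class IIa HDACs, which bind MEF2 factors and have little deacetylase activity of their own, went different ways. HDAC5 rose, with 30.5, 22.2, 24.8 and 27.4 FPKM in the vehicle samples and 48.9, 45.9, 38.8 and 41.2 FPKM with JIB-04 (log2 change 0.73 with SE 0.11, limma adjusted p = 0.000203). With the GC trend removed HDAC5 had a log2 fold change of 1.11. HDAC9 rose from 20.8 ± 1.62 to 27.0 ± 1.08 FPKM (log2 fold change 0.37, limma adjusted p = 0.000812), but had a log2 fold change of 0.049 with the GC trend removed and then did not pass. HDAC7 had 27.7 ± 2.00 FPKM with vehicle and 22.5 ± 3.38 FPKM with JIB-04 and passed narrowly (limma adjusted p = 0.0255). Leaving out vehicle replicate 2 or 3 or JIB-04 replicate 2, 3 or 4 ended the call for HDAC7, with adjusted p from 0.0525 to 0.0702, and in TPM its adjusted p was 0.201. SLC48A1, whose exons overlap those of HDAC7 on the opposite strand, fell from 26.3 to 12.1 FPKM (log2 fold change -1.09). HDAC4 had 30.4 ± 3.18 and 27.3 ± 2.64 FPKM and did not pass (limma adjusted p = 0.176), although without vehicle replicate 3 it did, at 0.0412. The mean balance of HDAC4 and HDAC5 turned over, from 1.16 times as much HDAC4 as HDAC5 with vehicle to 0.629 times with JIB-04 (log2 difference -0.88, standard error 0.13, exact permutation p = 0.0286, adjusted 0.0571). Once adjusted it did not pass, and the log2 ratio was only 0.0066 in vehicle replicate 1 and 0.061 in vehicle replicate 3. HDAC11 had 1.64, 1.23, 0.991 and 0.769 FPKM with vehicle and 0.314, 0.607, 0.752 and 0.469 FPKM with JIB-04.

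**Figure D3:**
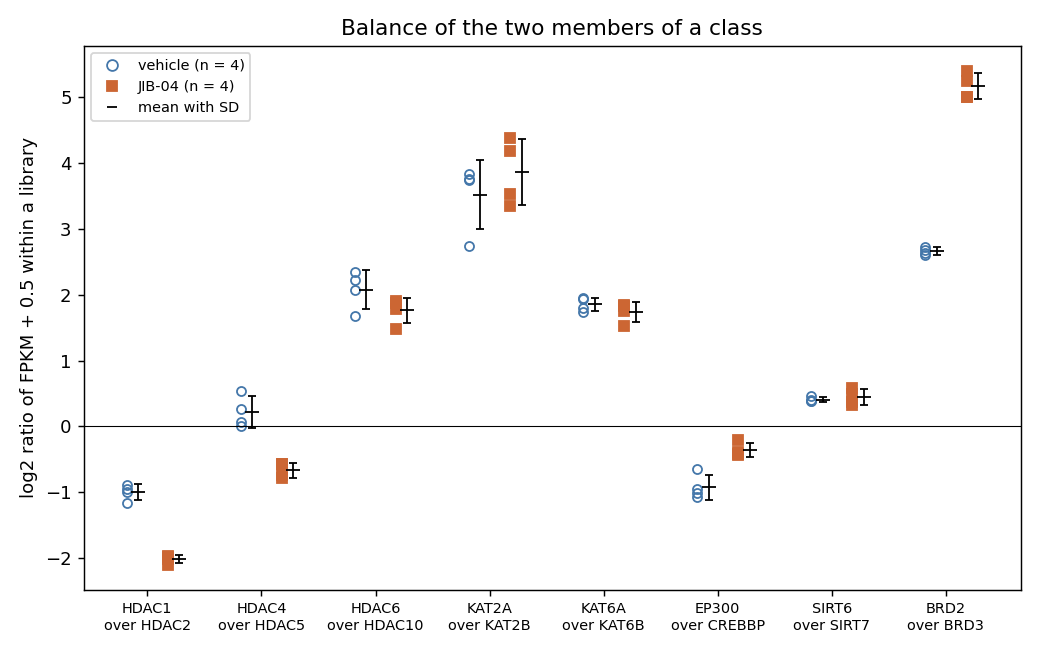
Log2 ratio of FPKM + 0.5 of 2 related genes within each sample for the 8 pairs compared, circles for vehicle and squares for JIB-04, with mean and SD beside the points. The groups do not overlap for HDAC1 over HDAC2, HDAC4 over HDAC5, EP300 over CREBBP and BRD2 over BRD3, and they overlap for the other 4 pairs.

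Sirtuins of the nucleus and cytoplasm were higher, and 2 of the 3 mitochondrial sirtuins were lower. SIRT1, at 67884669 to 67918390 on chromosome 10, deacetylates histones, p53 and FOXO factors. Its level was 17.8, 18.7, 19.7 and 24.1 FPKM with vehicle and 51.0, 49.1, 68.5 and 56.5 FPKM with JIB-04 (log2 change 1.46 with SE 0.12, limma adjusted p = 4.48e-06). This 2.80-fold difference was the largest rise among the 30 genes as deposited, but with the GC trend removed the log2 fold change of SIRT1 was 1.15, below those of BRD2, at 1.39, and EP300, at 1.37. SIRT2, the tubulin and histone H4 deacetylase of the cytoplasm, had 37.5, 35.6, 38.1 and 34.5 FPKM with vehicle and 55.4, 55.8, 52.7 and 51.1 FPKM with JIB-04 (log2 change 0.56 with SE 0.05, limma adjusted p = 1.05e-05). NFKBIB, which overlaps exons of SIRT2 on the opposite strand, was also higher (log2 fold change 1.09), and the sources used here do not say whether counting used strand. SIRT6, a chromatin deacetylase of histone H3, and SIRT7, a nucleolar sirtuin, passed with overlapping groups. SIRT6 had 39.4 ± 4.19 and 50.2 ± 8.95 FPKM (limma adjusted p = 0.0379), and its adjusted p was 0.0784 to 0.0967 without vehicle replicate 2, 3 or 4 or JIB-04 replicate 1 or 2. SIRT7 had 29.7 ± 3.49 and 36.4 ± 3.77 FPKM (limma adjusted p = 0.0231), with 0.0561 to 0.0657 without vehicle replicate 2 or 3 or JIB-04 replicate 1 or 2. MAFG, which shares exonic sequence with SIRT7 on the same strand, was higher as well (log2 fold change 0.74). With the GC trend removed the log2 fold changes were larger for SIRT2, at 0.90, SIRT6, at 0.84, and SIRT7, at 0.55. The ratio of SIRT6 to SIRT7 did not separate the groups as deposited (log2 difference 0.038, standard error 0.060, exact permutation p = 0.600), and did with the GC trend removed (log2 difference 0.29).

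The mitochondrial sirtuins were low and split. SIRT3, the main deacetylase of the mitochondrial matrix, had 17.2, 14.5, 13.6 and 14.2 FPKM with vehicle and 8.37, 7.28, 6.07 and 8.73 FPKM with JIB-04 (log2 change -0.93 with SE 0.12, limma adjusted p = 9.08e-05). PSMD13, which overlaps SIRT3 on the opposite strand, changed less (log2 fold change -0.18). SIRT5, which removes succinyl and malonyl groups, fell from 10.1 ± 0.767 to 6.33 ± 0.655 FPKM (log2 fold change -0.64, limma adjusted p = 0.000202). SIRT4, an ADP-ribosyltransferase and lipoamidase, rose from a low level, with 4.31, 2.36, 2.68 and 3.31 FPKM in the vehicle samples and 6.70, 7.06, 5.57 and 5.37 FPKM with JIB-04 (log2 change 0.88 with SE 0.17, limma adjusted p = 0.00118). The groups did not overlap for any of these 3 genes. SIRT1 made up 13.1% ± 2.03 of the summed sirtuin FPKM with vehicle and 26.1% ± 4.75 with JIB-04, whereas SIRT3 went from 9.66% ± 0.582 to 3.52% ± 0.596.

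Summed over each family, FPKM of the acetyltransferases were 432 ± 9.28 with vehicle and 511 ± 12.98 with JIB-04 (SD, n = 4), those of the HDACs 884 ± 21.1 and 750.1 ± 15.5, and those of the sirtuins 154 ± 10.0 and 217 ± 8.30. The sums are a description of the deposited FPKM and were not tested. The HDAC sum was dominated by HDAC2, at 41.3% ± 1.66 of it with vehicle and 53.9% ± 0.325 with JIB-04. The acetyltransferase sum was more even, with HAT1 the largest part at 20.2% ± 3.12 and 25.0% ± 0.442, and EP300 going from 6.93% ± 0.136 to 13.9% ± 0.429.

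**Figure D4:**
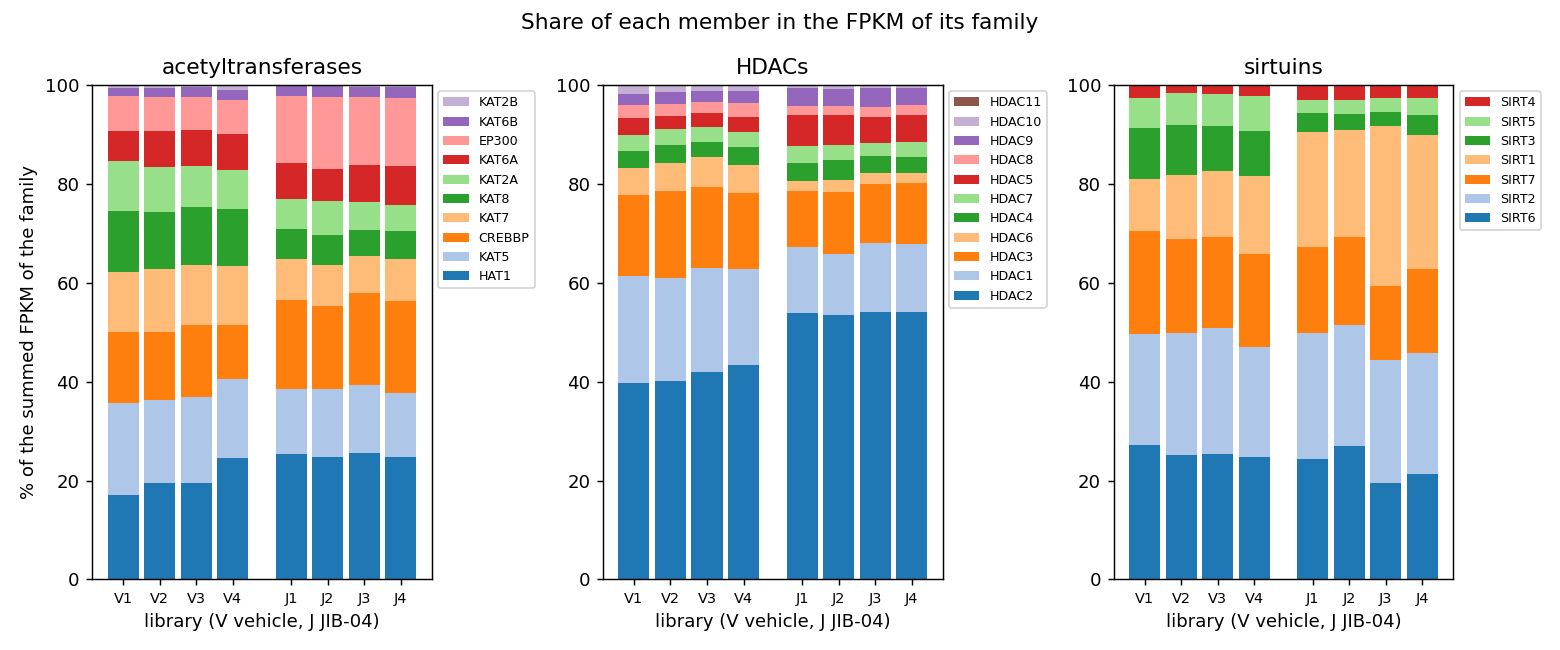
Share of each gene in the summed FPKM of its family, in percent, in each of the 8 samples (V1 to V4 vehicle, J1 to J4 JIB-04). HDAC2 takes 41.3% of the HDAC sum on average with vehicle and 53.9% with JIB-04, and the shares of EP300 and SIRT1 are larger in all JIB-04 samples than in any vehicle sample.

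Genes that work with these enzymes were listed by complex, 128 in all, and 126 of them were tested. No gene was listed under several complexes, also where complexes share a subunit. Of these, 40 were higher and 66 lower as deposited, and 50 higher and 53 lower in TPM. Of all genes, 34.2% were higher and 38.0% lower as deposited, and 40.4% and 31.1% in TPM. The median log2 fold change over the 126 was -0.20, and over all genes it was -0.066.

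The deacetylase complexes that hold the class I enzymes were lower in NuRD and NCoR and mixed in SIN3. Of 9 subunits of NuRD, the nucleosome remodeling and deacetylase complex, 8 were lower and 1 higher (median log2 fold change -0.80). Of all genes, 38.0% were lower and 34.2% higher. CDK2AP1 fell from 135 ± 9.49 to 41.4 ± 3.52 FPKM (log2 fold change -1.70, limma adjusted p = 6.83e-08), and MTA3 from 47.8 ± 2.82 to 19.1 ± 2.18 FPKM (log2 fold change -1.31). GATAD2B was the subunit that rose, from 17.5 ± 0.664 to 25.0 ± 0.230 FPKM. Of the 5 NCoR and SMRT subunits, which activate HDAC3, 4 were lower, among them TBL1X (log2 fold change -1.03) and GPS2 (log2 fold change -1.02), and TBL1XR1 was higher (log2 fold change 0.45), a call lost with the GC trend removed, where it was -0.11. SIN3 subunits went both ways, 6 higher and 7 lower of 14, or 7 higher and 6 lower in TPM. ARID4B and ARID4A, both DNA-binding subunits, rose with log2 fold changes of 1.90 and 1.41, and the scaffold SIN3A and SUDS3 fell with log2 fold changes of -0.77 and -0.80. CoREST and MIER subunits changed less, with 1 higher and 4 lower of 7, led by RCOR3 (log2 fold change -0.49) and RCOR2, which fell from 2.38 ± 0.207 to 1.56 ± 0.235 FPKM and did not pass with the GC trend removed.

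Subunits of the acetyltransferase complexes moved in both directions, as did genes in general, at 34.2% higher and 38.0% lower as deposited. Of 18 SAGA and ATAC subunits, 5 were higher and 10 lower, with DR1 rising from 78.3 ± 1.92 to 167 ± 6.46 FPKM, ZZZ3 from 40.2 ± 6.82 to 82.1 ± 4.14 FPKM, SUPT3H falling from 9.53 ± 0.188 to 4.38 ± 0.342 FPKM and KAT14 from 19.3 ± 1.27 to 9.79 ± 0.608 FPKM. Of 31 subunits of the MYST complexes, 9 were higher and 16 lower, or 14 higher and 13 lower in TPM. RUVBL1, an ATPase of the TIP60 complex among others, fell from 263 ± 5.89 to 118 ± 1.53 FPKM (log2 fold change -1.16, limma adjusted p = 7.54e-09), and JADE1, a scaffold of KAT7, had a log2 fold change of -1.44. EPC2 and ING3, both of the TIP60 complex, rose with log2 fold changes of 1.41 and 1.37. Other readers with a bromodomain or YEATS domain were more often higher than lower, 16 against 7 of 29 tested, and 20 against 5 in TPM, where 40.4% of all genes were higher. ATAD2B rose from 9.56 ± 0.266 to 29.6 ± 4.12 FPKM, and SP140, a nuclear body protein of immune cells, from 0.280 ± 0.0729 to 2.24 ± 0.277 FPKM, whereas MLLT1, a YEATS reader, and BAZ1B fell with log2 fold changes of -0.82 and -0.68.

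Genes that supply acetyl-CoA were lower in all but 1 case. Acetyl-CoA is the donor of the acetyl group, and NAD is the cosubstrate of sirtuins. Of 9 acetyl-CoA genes, 8 fell and 0 rose (median log2 fold change -0.84), against 38.0% lower and 34.2% higher of all genes. SLC25A1, the carrier that exports citrate from mitochondria for cytosolic acetyl-CoA, fell from 99.2 ± 6.72 to 21.1 ± 2.76 FPKM (log2 fold change -2.21, limma adjusted p = 6.21e-08), and CRAT, carnitine acetyltransferase, from 13.3 ± 1.32 to 4.59 ± 0.444 FPKM. Of 4 NAD genes tested, NAMPT, the rate-limiting enzyme of NAD salvage, rose from 50.3 ± 12.1 to 130.1 ± 7.40 FPKM (log2 fold change 1.39, limma adjusted p = 1.32e-05). NMNAT3 and NAPRT fell, with log2 fold changes of -1.41 and -1.37.

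**Figure D5:**
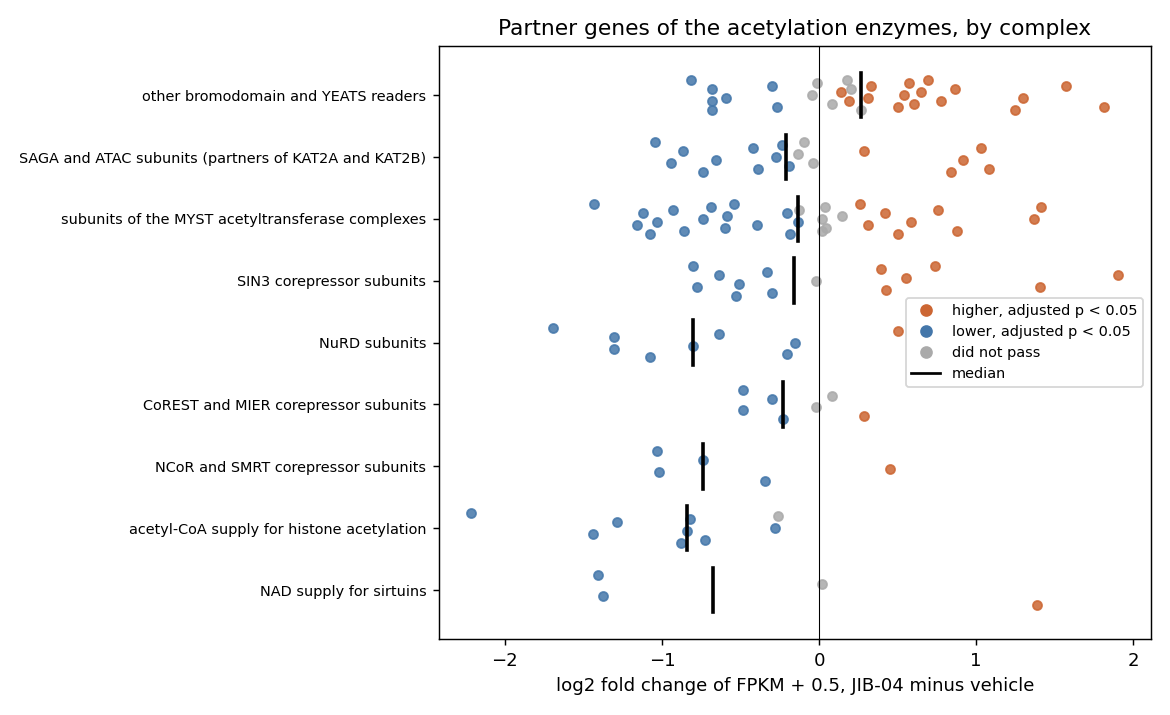
Log2 fold change of FPKM + 0.5 (JIB-04 minus vehicle) of the partner genes tested, 1 point per gene in rows by complex, with a bar at the median of each row. Orange genes were higher, blue lower and gray did not pass; the medians of NuRD, NCoR and acetyl-CoA supply lie at -0.80, -0.74 and -0.84, and that of other readers at 0.27.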

How the data were processed

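Directional mRNA libraries of A673 cells, 4 vehicle and 4 JIB-04, were sequenced by the authors with single-end reads (151 bp per the labels, 50 cycles in the methods). Per the labels, the authors aligned reads to GRCh38 with GSNAP, used SAMtools and calculated the deposited FPKM with Cufflinks. Total read counts are unknown, so precision was taken from the spread between samples. Of 66095 entries (65975 identifiers), 117 identifiers with more than 1 entry were summed, and 13 genes with a placeholder value of 999999999 were left out, none of them a member.

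The 17460 genes averaging 1 FPKM or more were fitted with limma 3.58.1 (R 4.3.3) after the transform log2(FPKM + 0.5), with a variance trend and no block, with Benjamini-Hochberg adjustment over all genes and a threshold of 0.05. This scale understates changes of low genes. Within-sample ratios of 8 pairs were compared by an exact permutation test (scipy 1.17.1). The limma fit and the exact permutation test were tried on simulated data, and the other steps were not. GENCODE 29 gave positions and transcript GC content. SGF29 and KAT14 were matched by identifier. Members, lists and pairs were chosen with earlier results of these data known. Named genes were all members, BRDT, the markers, and up to 2 rises and 2 falls of each partner list among calls without overlap, and 1 further gene is not reported here. The alternatives were pseudocounts of 0.1 and 1, no filter, a mean of at least 5 FPKM, TPM, median-ratio scaling, an untransformed analysis of variance, a replicate block, summed identifiers and leaving out each sample. Removal of the GC trend was added after the data were seen. Whether that trend was technical or part of the response to JIB-04 was not tested. Figures were made with matplotlib 3.10.9 in Python 3.11.15.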

Additional observations from a re-analysis of the deposited data

Results flagged for a closer look

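Of 60 groups of 4 samples (30 genes, 2 groups each), 3 held a sample whose gap to the nearest other sample passed Dixon's critical value for 4 samples, and chance gives about 1 in 20. KAT2B was at 4.75 FPKM in vehicle replicate 4, against 2.26 to 2.52 FPKM in the other vehicle samples, and without that sample its log2 fold change was -0.44. EP300 was at 68.9 FPKM in JIB-04 replicate 1, against 71.8 to 72.2 FPKM in the other JIB-04 samples. HDAC1 was at 91.8 FPKM in JIB-04 replicate 2, against 101 to 103 FPKM in the others. For EP300 and HDAC1 the direction and the call were the same without any 1 sample. The 3 values belonged to 3 different samples.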

How the results depend on the processing

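Of 29 members tested, 19 kept their direction and their call in every alternative run, 18 of them in all 18 and SIRT4 in the 17 in which it was tested. The alternatives changed the pseudocount, filter, scaling, test, block, identifiers, GC trend or samples. With the GC trend removed, the log2 fold change turned to 0.020 for KAT2A, 0.192 for KAT5 (called higher), -0.27 for HDAC2 (called lower) and 0.061 for HDAC4, and in TPM it turned to 0.055 for KAT5 and 0.0094 for HDAC4. For the counts that follow, shares of all genes called are given above only as deposited and in TPM. Counts under other settings can therefore not be set against the call rate of the setting. The acetyltransferases that were lower numbered 2 in TPM. The HDACs that were higher numbered 1 with the GC trend removed. The sirtuins that were higher numbered 3 by analysis of variance, and 3 to 5 without 1 sample, with 3 reached without vehicle replicate 2 or 3 or JIB-04 replicate 1 or 2. Partner subunits of MYST complexes that were higher numbered 14 in TPM, those of CoREST and MIER 0 with no filter and by analysis of variance and 0 to 1 without 1 sample (0 without vehicle replicate 2, 3 or 4 or JIB-04 replicate 1 or 2), those of NCoR and SMRT 0 with the GC trend removed, and NAD genes that were higher numbered 2 with no filter and those that were lower 1 at a mean of at least 5 FPKM. The difference in paralog balance, SIRT6 over SIRT7, was -0.0083 to 0.077 without 1 sample and turned sign without JIB-04 replicate 2. Same-numbered samples of the groups had correlations of deviations from -0.058 to 0.082, so the numbers did not pair them. With a replicate block, 14 members were higher and 13 lower, as without it. With the GC trend removed, the paralog balances differed by -0.61 for HDAC1 over HDAC2, -1.05 for HDAC4 over HDAC5, -0.64 for HDAC6 over HDAC10, 0.78 for KAT2A over KAT2B, 0.46 for EP300 over CREBBP, 0.29 for SIRT6 over SIRT7 and 2.58 for BRD2 over BRD3, each with an exact permutation p of 0.0286 (the smallest possible) and 0.0327 adjusted over the 8 pairs. The adjusted value of a pair at the smallest p is set by how many of the 8 pairs reach it. Passing with the GC trend removed is therefore no measure of a single pair. Leaving out a sample or pairing the ratios by number cannot bring the exact p of a pair under the threshold. The number of reads behind each value is unknown, which limits what can be said of KAT2B, HDAC11 and SIRT4.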
